A study of Mus musculus with 2 samples.

Results

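The 6561 regions described here are all the ChIP-seq peaks on mouse chromosome 1 in a deposited list of 83676 peaks, and they were chosen by chromosome name alone. Chromosome 1 itself was picked because, in an earlier look at the same list, its peaks were the widest of the 19 autosomes and its peak number the most even along the chromosome. Those values, and every width or spacing below, are therefore given as a description with no test. The list comes from MIN6-4N cells, a mouse insulinoma line with features of pancreatic β-cells. Both libraries were made from cells transfected with the pcDNA3.1-myc-his-HLXB9 plasmid, so that HLXB9 was overexpressed in each, and chromatin was taken 48 hours later. The anti-HB9PO4 ChIP group held 1 library, made with an antibody against phosphorylated HB9. The input group also held 1 library, made with no antibody, and reads of 36 bp were sequenced from both. A library without the plasmid, or with a control antibody, was not analysed here, so specificity for phospho-HLXB9 is not shown. No value has a replicate error, and the tag numbers behind the peaks are unknown. The intervals below cover only counting error or the spread over peaks or windows. All positions are in build mm9, and no gene was assigned to a peak because no mm9 annotation was used here.

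HLXB9, also known as HB9 or MNX1, belongs to the homeodomain family of transcription factors and is needed for the development of pancreatic β-cells and of motor neurons. Factors of this kind bind short DNA motifs. Their ChIP-seq signal usually forms narrow peaks, whereas histone marks and long regulatory domains often form broad ones. The width of a called peak is the stretch over which the ChIP signal passed the caller's limit. The score is a separate value that the authors' peak caller gave each peak. It was taken to be -log10 of a p-value, multiplied by 10, so that the list's lowest score of 30 equals a p-value of 0.001.

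Chromosome 1 peaks differed from the rest of the list in width and not in score. Their median width was 756 bp (95% interval from order statistics 747 to 764 bp, n = 6561 peaks), against 650 bp (648 to 652 bp) over the 76832 peaks of the other 18 autosomes. Chromosomes 11 and 7 came nearest, chromosome 11 with a median of 716 bp and chromosome 7 with the next highest 90th percentile, 1482.5 bp against 1577 bp on chromosome 1. The whole distribution was moved and not only its upper end. The 10th percentile was 454 bp on chromosome 1 and between 361 and 435 bp on each other autosome, and peaks narrower than 400 bp made up 4.94% of chromosome 1 (Wilson 95% interval 4.44% to 5.49%) against 8.97% (8.77% to 9.17%) of the other autosomes. Peaks of at least 1 kb made up 29.7% of chromosome 1 (28.6% to 30.8%) and 17.5% (17.2% to 17.8%) of the others. In score, by contrast, chromosome 1 held the ninth place among the 19 autosomes. Its median was 39.3, the same as over the other autosomes to 3 digits, and its interquartile range was 33.9 to 49.5 against 33.7 to 49.4. Scores of 50 or more were found in 1580 of its peaks, or 24.1% (23.1% to 25.1%), the same share as the 24.1% of the whole list.

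Chromosome 1 had the higher median width in each score band up to 200, with intervals that overlapped from 100 to 200. The intervals treat neighbouring peaks, which had like widths, as independent and are too narrow. From 30 to 40, the weakest band, 3453 chromosome 1 peaks had a median of 697 bp (683 to 708 bp) against 580 bp (578 to 583 bp) on the other autosomes. From 40 to 50 the medians were 760.5 bp (743 to 786 bp) and 667 bp (663 to 671 bp), and from 50 to 100 they were 906.5 bp (877 to 938 bp) and 791 bp (784 to 797 bp). From 100 to 200 the 116 chromosome 1 peaks had a median of 1348.5 bp (1178 to 1581 bp), which overlapped the 1229 bp (1184 to 1270 bp) of the other autosomes. Median width thus rose with score up to 200 on chromosome 1 and on the other autosomes. At scores of 200 or more the other autosomes had a lower median of 857.5 bp (745 to 1052 bp, 90 peaks), and chromosome 1 had only 4 peaks. Over single peaks, which share both libraries, score and width had a Spearman correlation of 0.26 on chromosome 1 and 0.34 on the other autosomes.

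Along the chromosome, 1 Mb windows were filled more evenly than those of any other autosome. Windows lying wholly between the first and the last peak numbered 193, and they held a median of 35 peaks. Of these, 154 windows (79.8%) held between 25 and 45 peaks, where the other autosomes had between 23.2% and 64.7% of their windows in that range. That range lies around the median of chromosome 1. The medians of the other autosomes ran from 19 to 46 peaks, so a low share there is not by itself a sign of unevenness. The fullest windows of chromosome 1 held 56 peaks each and lay at 36 to 37 Mb, 57 to 58 Mb and 137 to 138 Mb, whereas the fullest window of each other autosome held at least 59 and up to 122 peaks. Only 1 window was empty, at 86 to 87 Mb. The next emptiest held 8 peaks (122 to 123 Mb) and 11 peaks (85 to 86 Mb), and a window at 185 to 186 Mb also held 11. The windows of chromosome 1 thus kept closer to their middle value than those of any other autosome.

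**Figure D1:**
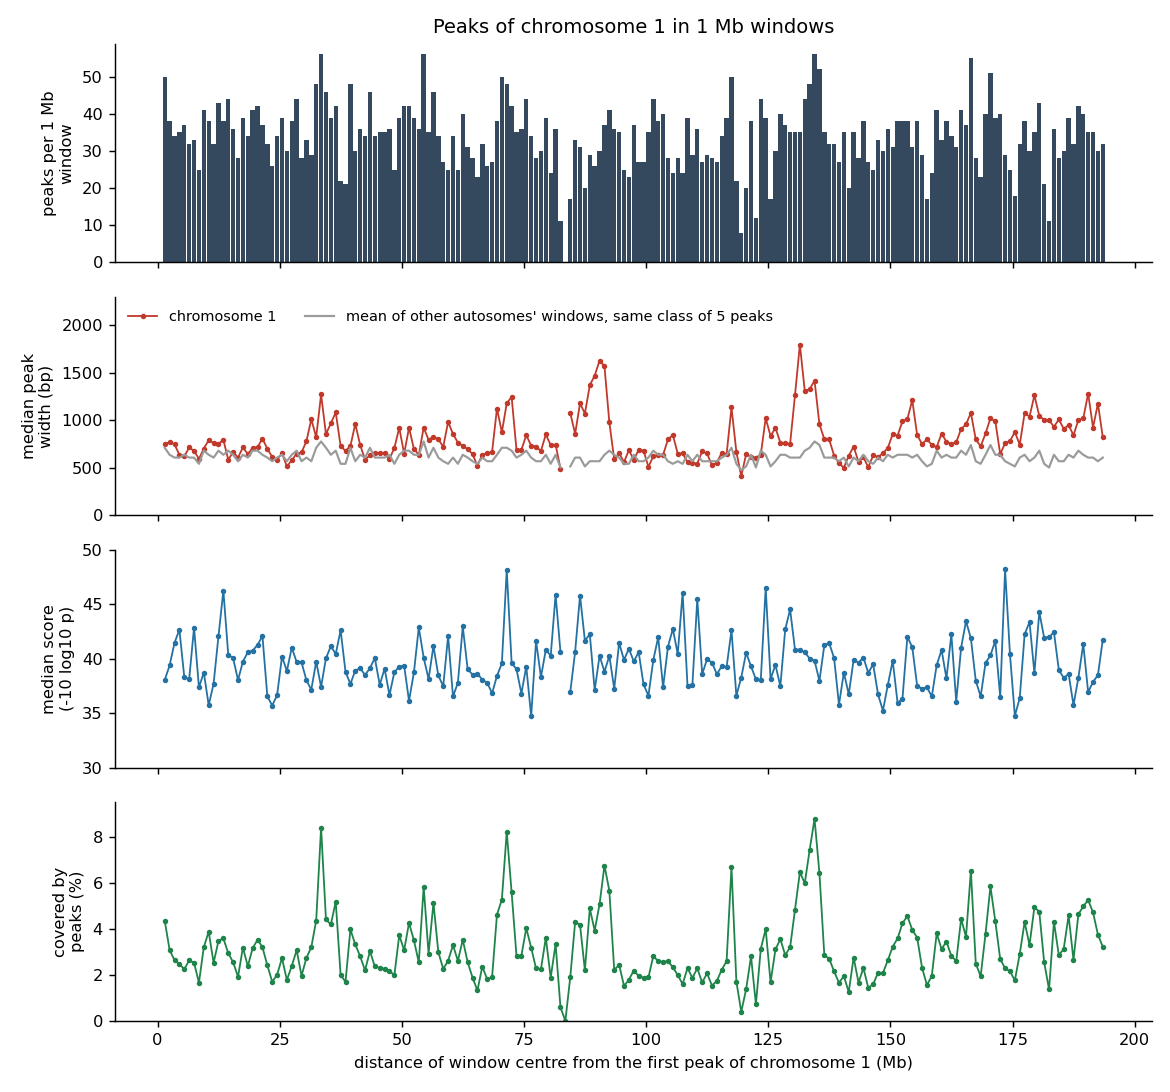
Peaks of chromosome 1 in 193 complete 1 Mb windows, plotted by distance from the first peak: number of peaks, median width in bp (red) beside the mean of the other autosomes' windows in the same class of peak number (grey), median score, and percent of the window covered by peaks. Peak number stays near its median of 35 and the median score between 34.7 and 48.2, while the median width moves in blocks between 411 and 1797 bp.

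The low variation in peak number was present at each window length that was tried. The variance of the peak number per window divided by its mean, which is 1 for peaks placed independently at 1 rate, was 1.18 on chromosome 1 in windows of 100 kb, 1.75 in windows of 500 kb and 4.19 in windows of 5000 kb. In windows of 1000 kb it was 2.32, so chromosome 1 lay above 1 at each length and was even only beside the other autosomes. Each of the other autosomes lay higher at each length. The nearest was chromosome 13 up to windows of 2000 kb, with 1.33 at 100 kb and 2.66 at 500 kb, and chromosome 19 at 5000 kb, with 9.73. The gap to the other autosomes thus widened with window length, from 1.76 at the median of the others in 100 kb windows to 23.6 in 5000 kb windows. Chromosome 2 was the least even at each length and reached 55.7 at 5000 kb.

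**Figure D2:**
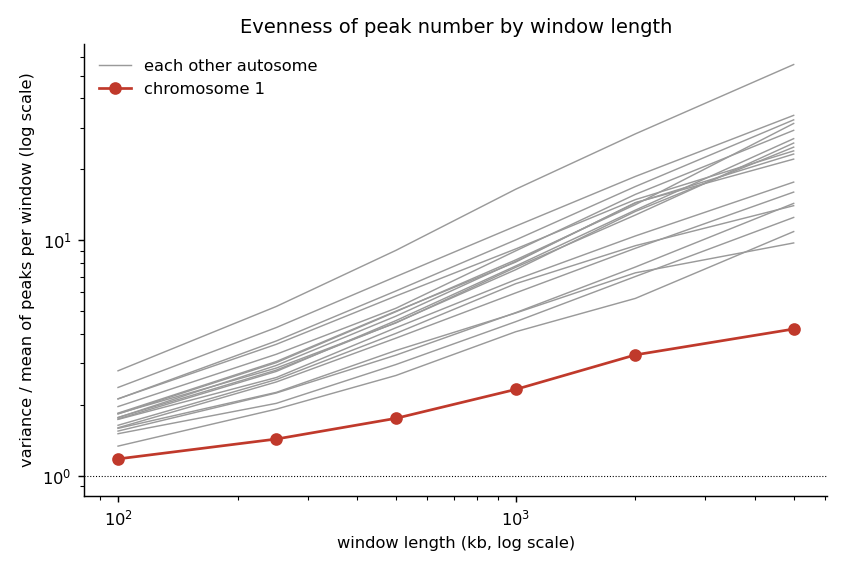
Variance divided by mean of the number of peaks per window (log axis) against window length in kb (log axis), for chromosome 1 (red) and each of the 18 other autosomes (grey), with a dotted line at 1. Chromosome 1 lies lowest at all 6 lengths, from 1.18 at 100 kb to 4.19 at 5000 kb.

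Width did not share this evenness. Among the 191 windows with at least 10 peaks, the median width of a window ran from 490 to 1797 bp, with a 10th percentile of 587 bp and a 90th percentile of 1083 bp. The ratio of these percentiles, 1.85, was the third highest of the autosomes, and the coefficient of variation of 28.3% was second to the 35.7% of chromosome 7. Peak number per window, in contrast, had the lowest coefficient of variation of the autosomes, 26.2%. Median scores of the same windows ran only from 34.7 to 48.2, and their 10th and 90th percentiles were 36.7 and 42.6. The low end of the window widths still lay above that of each other autosome, whose smallest window median was at most 466 bp. The 10th percentile was at most 524 bp there. Wide peaks were therefore not found to the same degree in each stretch of the chromosome.

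The windows with the widest peaks lay at 2 places on the chromosome. The 3 windows with the largest medians were those at 134 to 135 Mb (1797 bp, 35 peaks), 93 to 94 Mb (1628 bp, 30 peaks) and 94 to 95 Mb (1570 bp, 37 peaks). Their median scores were 40.8, 40.3 and 38.8, close to the chromosome's 39.3, so these windows stood out in width and not in score. The 3 smallest medians were 490 bp at 85 to 86 Mb (11 peaks), 500 bp at 143 to 144 Mb (35 peaks) and 505 bp at 148 to 149 Mb (27 peaks). The windows at 134 and at 143 Mb held the same number of peaks with a 3.59-fold difference in median width.

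With a limit of 1000 bp on the window median, chosen after the values were seen, 34 of the 191 windows were wide, or 17.8%, against 51 of 2052 windows (2.49%) on the other autosomes. Runs of at least 3 adjoining wide windows numbered 4 on chromosome 1 and 4 on all the other autosomes together, of which chromosome 7 had 2 and chromosomes 5 and 11 had 1 each. The runs of chromosome 1 held 19 of its 34 wide windows, and the rest stood alone or in pairs. The longest on chromosome 1 covered 6 windows, from 89 to 95 Mb, and its 173 peaks had a median width of 1321 bp and a median score of 40.1. The block from 133 to 138 Mb held 218 peaks with a median of 1355.5 bp and a median score of 40.3. The blocks from 180 to 185 Mb and from 191 to 194 Mb were less wide, with medians of 1073 and 1052 bp over 167 and 117 peaks. These blocks differed more in peak number than in score: they held on average 28.8, 43.6, 33.4 and 39 peaks per window, respectively.

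Narrow stretches lay before and between these blocks. Windows with a median under 700 bp, also a limit set after the values were seen, numbered 74, or 38.7% of the 191. On the other autosomes 1556 of 2052 windows (75.8%) were that narrow, and no single one of them had less than 56.1%. Of the 74, 59 fell in 9 runs of at least 3 windows, and 1415 of the 1556 elsewhere also lay in such runs. The longest runs on chromosome 1 were from 96 to 107 Mb and from 109 to 120 Mb, each of 11 windows, with medians of 605 and 606 bp over 367 and 340 peaks. The first began 1 window after the wide block from 89 to 95 Mb had ended. In the 6 windows of that block 22.0% of peaks were at least 2 kb wide, and in the 11 windows from 96 to 107 Mb 0.545% were. Scores of 50 or more were reached by 23.7% of peaks in the block and 20.2% after it.

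Wide and narrow windows of chromosome 1 overlapped in number of peaks. The 34 wide windows held a median of 37.5 peaks (10th to 90th percentile 26.6 to 50.7) and the 74 narrow ones 33 (23.3 to 39.7). Their median scores were 40.5 (37.2 to 44.0) and 39.0 (36.7 to 41.0), and the median share of peaks scoring 50 or more was 25.7% and 20.5%. The covered part of the window, which contains the width, was 4.86% in wide and 2.18% in narrow windows. The median distance from a peak's end to the next peak's start was 16.3 kb in wide and 21.3 kb in narrow windows. Wide windows thus had slightly more, slightly higher-scoring and closer peaks at the median, and the 10th to 90th percentile ranges of both kinds of window overlapped in peak number and in score.

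In segments of 10 Mb the same contrast appeared. Over the 18 segments with 10 complete windows, peaks per window varied 1.67-fold (24.9 to 41.7) and the median width 1.74-fold (605 to 1053 bp), while the median score varied 1.08-fold (38.1 to 41.2). The widest segment was 130 to 140 Mb, at 1053 bp (979 to 1125 bp, 417 peaks), followed by 180 to 190 Mb, at 1022 bp (944 to 1103 bp, 311 peaks). The incomplete last segment, beyond 190 Mb, had 966 bp (898 to 1034 bp, 253 peaks). The narrowest were 110 to 120 Mb, at 605 bp (564 to 630 bp, 312 peaks), and 140 to 150 Mb, at 617 bp (575 to 635 bp, 299 peaks), which adjoins the widest. The intervals of the wide and the narrow segments were apart. They treat peaks as independent and are too narrow, since neighbouring peaks had like widths. From one end of the chromosome to the other there was only a weak trend: across windows the Spearman correlation of position was 0.30 with median width, -0.13 with peak number and 0.01 with median score (191 windows that share both libraries).

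Likeness in width reached over several Mb, whereas likeness in score was near 0 throughout. Over all pairs of chromosome 1 peaks whose midpoints lay at most 10 kb apart, the rank correlation of the widths was 0.35 (2242 pairs). It was 0.28 from 10 to 100 kb, 0.15 from 1000 to 2000 kb and 0.09 from 2000 to 5000 kb, and it was -0.01 from 5000 to 10000 kb. The blocks were thus of a few Mb. For scores the correlation was 0.02 up to 10 kb and within 0.01 of 0 beyond 100 kb. Between adjoining 1 Mb windows, the median width had a Spearman correlation of 0.67, the fourth highest of the autosomes, and peak number one of 0.20, the lowest of them. Chromosome 7 exceeded chromosome 1 in width likeness at each distance, with 0.42 up to 10 kb. These are descriptions, as each peak enters many pairs.

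**Figure D3:**
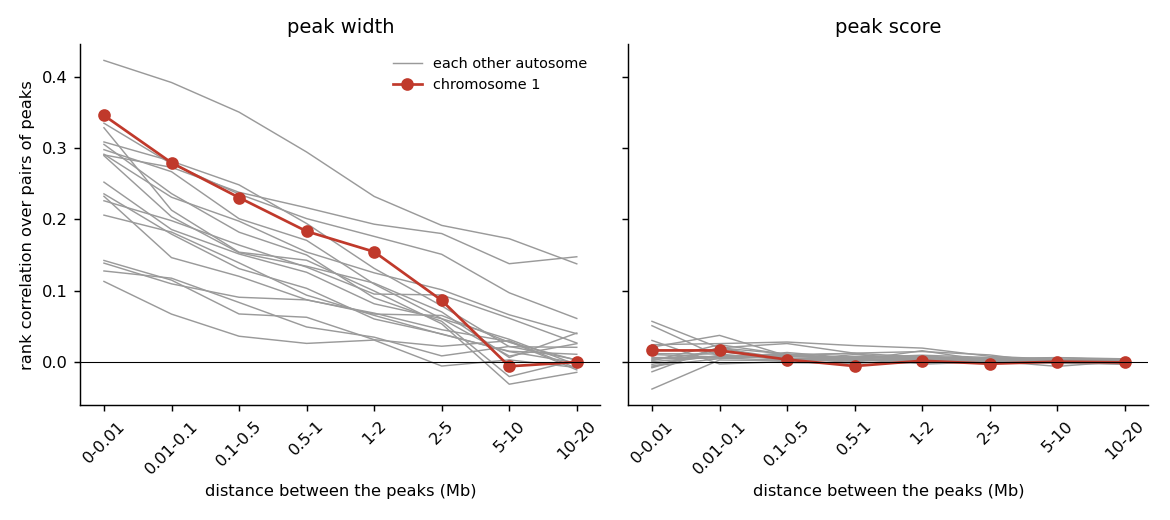
Rank correlation of the widths (left) and of the scores (right) of pairs of peaks on the same chromosome, by the distance between their midpoints in Mb, for chromosome 1 (red) and each other autosome (grey). Width correlation on chromosome 1 falls from 0.35 below 0.01 Mb to about 0 beyond 5 Mb, and score correlation stays near 0.

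On most autosomes fuller windows had wider peaks, and on chromosome 1 this relation was weak. Across windows with at least 10 peaks, the Spearman correlation of peak number and median width was 0.23 on chromosome 1 (191 windows) and between 0.47 and 0.83 on the other autosomes. A narrow range of peak numbers lowers such a correlation. Among windows with 25 to 45 peaks on each chromosome it was 0.16 on chromosome 1 (154 windows), 0.21 on chromosome 7, the next lowest, and 0.50 at the median of the others. No p-value is given, since windows of 1 pair of libraries are not replicates.

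To set chromosome 1 beside the other autosomes at equal peak number, each of its windows was compared with the mean of the other autosomes' windows in the same class of 5 peaks per window. All 192 windows with peaks found a class. Their median widths averaged 806 bp, against a matched mean of 612 bp. The difference was 194 ± 222 bp (mean ± SD over the 192 windows), with a median of 138 bp (95% interval 111 to 167 bp), and 161 windows (83.9%) lay above their matched mean. That interval treats windows as independent and is too narrow, since adjoining windows had like median widths (Spearman correlation 0.67). Each other autosome was treated in the same way, over the range of peak numbers found on chromosome 1. Its matched mean then included the windows of chromosome 1, whose wide peaks raise that mean and lower the difference. Mean differences ran from -59.1 bp on chromosome 2 to 46.9 bp on chromosome 7, and at most 47.1% of windows lay above. Chromosome 1 was thus outside the range of the other 18 in mean, and its spread over windows was also the largest, ahead of 198 bp on chromosome 7. In peaks with a score from 30 to 40 alone, the difference was 178 ± 201 bp.

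**Figure D4:**
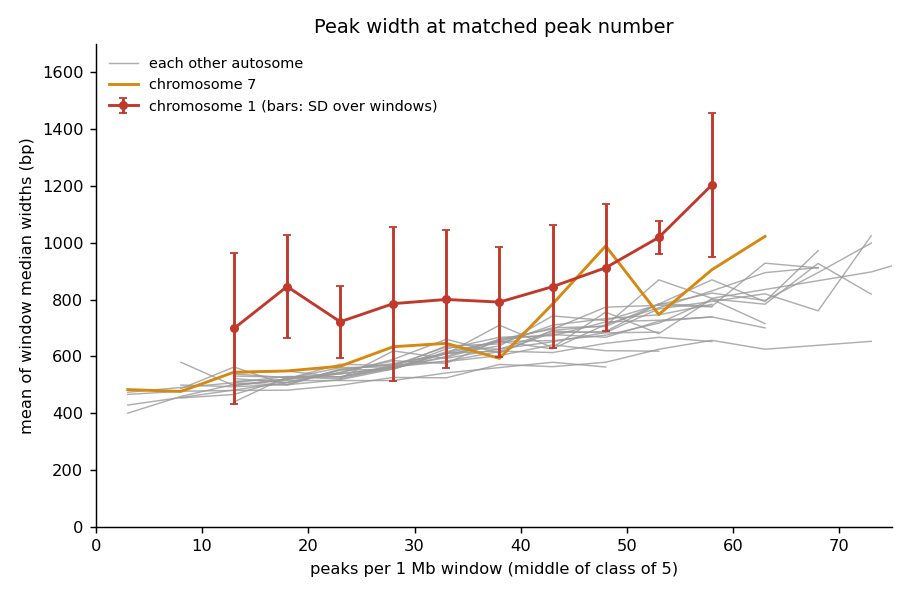
Mean of the window median widths in bp against peaks per 1 Mb window, in classes of 5 peaks with at least 3 windows, for chromosome 1 (red, bars are SD over windows), chromosome 7 (orange) and each other autosome (grey). Chromosome 1 lies above the others in all classes drawn but that of 46 to 50 peaks, where chromosome 7 reaches 989 bp against 912 bp.

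The difference was present at low and at high peak number. In windows with 16 to 20 peaks the mean of the medians was 846 ± 181 bp on chromosome 1 (SD over 7 windows) and 513 ± 57.2 bp on the others (207 windows). In windows with 31 to 35 peaks it was 800 ± 243 bp (45 windows) against 606 ± 82.8 bp (238 windows), and with 46 to 50 peaks 912 ± 224 bp (10 windows) against 710 ± 138 bp (175 windows). On chromosome 1 the means of the other sparse classes were lower than that of 16 to 20 peaks, at 698 ± 267 bp with 11 to 15 peaks (3 windows) and 722 ± 126 bp with 21 to 25 peaks (18 windows), against 502 ± 59.9 bp and 541 ± 59.8 bp on the others. The class of 6 to 10 peaks held a single chromosome 1 window, which at 411 bp lay below the 475 ± 69.8 bp of the others.

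The matched difference was not spread evenly over the chromosome. All 20 segments had a mean above their match, but by very different amounts. In the segment from 90 to 100 Mb windows exceeded their matched mean by 471 bp on average, from 130 to 140 Mb by 454 bp and from 180 to 190 Mb by 428 bp. From 110 to 120 Mb the excess was 10.0 bp and from 140 to 150 Mb 30.3 bp, and in both segments only 5 of 10 windows lay above. In 7 segments each complete window lay above its match. The segments from 110 to 120 Mb and from 140 to 150 Mb were near the level of the other autosomes at the same peak number. The excess came mainly from the other segments. Since width enters the excess, a small excess in the narrowest segments follows in part from how they were picked.

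Score and spacing at matched peak number were close to those of the other autosomes. The median score of chromosome 1 windows was 39.6 against a matched 39.1, a difference of 0.511 ± 2.44, with a median difference of 0.107 (-0.186 to 0.607). This mean was the highest of the autosomes but only slightly above the 0.395 of chromosome 7. Peaks scoring 50 or more made up 23.6% against 22.4% (difference 1.23 ± 7.63 percentage points). The median distance to the next peak was 21.3 kb on both sides, with a difference of -0.0774 ± 5.44 kb. For the share of peaks followed within 10 kb, the values were 30.1% and 30.6%. Matching on peak number largely sets both of these spacing values, so their likeness follows mostly by construction. Inside a window, the variance divided by the mean of the peak numbers of its 10 parts of 100 kb was 1.07 on chromosome 1 and 1.16 in the matched windows (difference -0.0936 ± 0.546), with 2 other autosomes, 13 and 15, lower. Hence the even spread of chromosome 1 showed mainly between windows. By this last measure, its peaks were spread within windows much as in equally full windows elsewhere.

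**Figure D5:**
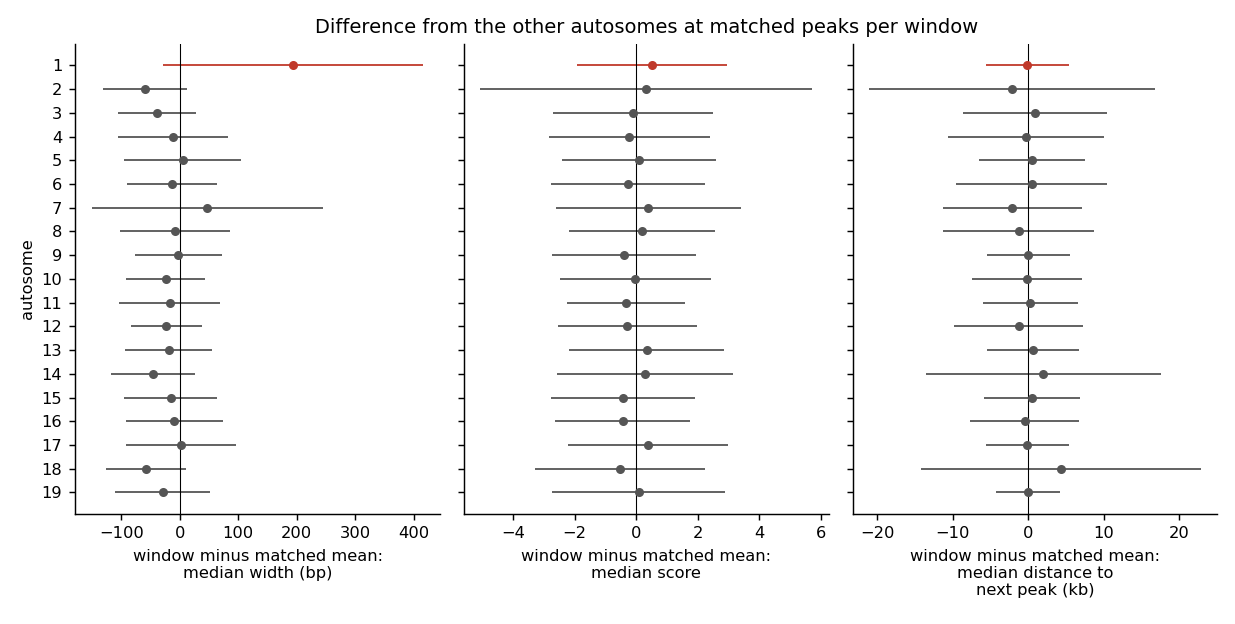
Difference of 1 Mb windows from the mean of the other autosomes' windows in the same class of peak number, in median width (bp), median score and median distance to the next peak (kb), for each autosome. Points are means and bars SD over windows. For each other autosome, the matched mean includes the windows of chromosome 1. The mean of chromosome 1 (red) is the highest in width, at 194 bp against at most 46.9 bp, and in score, at 0.511 against at most 0.395, and in distance, at -0.0774 kb, it lies among the others.

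Because its peaks were wider at an average number, chromosome 1 had more sequence under peaks. Peaks covered 6.04 Mb, or 3.11% of the chromosome from its first to its last peak, the fifth highest share of the autosomes, although its 33.8 peaks per Mb (Poisson 95% interval 33.0 to 34.6) held only the 14th place. At matched peak number coverage was 3.13% per window against 2.32%, a difference of 0.807 ± 0.982 percentage points, and 81.2% of windows lay above.

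Unmatched, chromosome 1 peaks were less often close to each other than those of the other autosomes pooled. The next peak began within 10 kb of 31.5% of them (30.4% to 32.7%), against 36.9% (36.5% to 37.2%) on the other autosomes, and within 1 kb of 4.59% (4.11% to 5.12%) against 5.82% (5.66% to 5.99%). Single autosomes were as low or lower, with 29.4% within 10 kb on chromosome 18 and 4.45% within 1 kb on chromosome 13. The median distance was 18.7 kb (17.99 to 19.4 kb) against 15.8 kb (15.6 to 16.0 kb). Stretches of more than 100 kb without a peak followed 3.52% of chromosome 1 peaks (3.10% to 4.00%) and 4.14% (4.00% to 4.28%) of the others, with intervals that nearly touched. In this share chromosome 1 held only the 10th place from the top among the 19 autosomes, and the median of the other autosomes was 3.55%. The longest stretch without a peak was 2.04 Mb (85334207 to 87377370). It was followed by 0.913 Mb (122511735 to 123424340) and 0.571 Mb (125033321 to 125604238). Assembly gaps and sequence to which reads cannot be mapped were not looked up in these stretches. After joining peaks up to 1 kb apart, 4.42% of 6260 regions held at least 2 peaks (3.94% to 4.96%), against 5.72% (5.56% to 5.90%) elsewhere. Runs of at least 3 peaks made up 0.367% of chromosome 1 regions (0.245% to 0.551%) and 0.410% (0.366% to 0.460%) elsewhere, with intervals that overlapped. Of the 320 autosomal runs of this kind 23 were on chromosome 1, and the longest of these held 4 peaks over 5.73 kb (42750149 to 42755882, highest score 70.4).

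Very broad peaks were numerous on chromosome 1 and unevenly spread along it. Peaks of at least 2 kb numbered 293, or 4.47% of the chromosome's peaks (3.99% to 4.99%), against 1.74% of the whole list and 4.82% on chromosome 7. Chromosome 1 thus held 7.84% of all peaks and 20.2% of the broad ones. It held 77 of the 253 peaks of at least 3 kb. Of its 193 windows 112 had no broad peak, and the 10 windows richest in them held 112 of the 293 (38.2%). The richest segments, at 90 to 100, 130 to 140 and 190 to 200 Mb, held 133 of them (45.4%) with 14.8% of the peaks. Those at 110 to 120 and 140 to 150 Mb held none. Such shares of the richest windows and segments were not computed for the other autosomes. Broad peaks of chromosome 1 had a median score of 49.6, against 56.4 for the 1161 broad peaks of the other autosomes.

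The 5 widest peaks of chromosome 1 were not among its 5 highest-scoring ones. As a group, however, its 293 broad peaks scored higher, with 49.5% at 50 or more against 24.1% of all its peaks. The widest of the whole list, 8978 bp (136091417 to 136100394), lay in the block from 133 to 138 Mb, and so did the third widest of the chromosome, 6052 bp (134640660 to 134646711). The latter had a score of 30.02, at the limit of the list. Regions of 6595 bp (88334847 to 88341441) and 6031 bp (74438347 to 74444377) scored 122.9 and 62.1, and one of 5203 bp (36554107 to 36559309) scored 69.8 in one of the 3 fullest windows. The ranks of these 5 regions by score in the whole list ran from 577 to 83491.

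Very high scores were rare on chromosome 1 and on the other autosomes alike. Scores of 200 or more were found in 4 peaks of chromosome 1, or 0.0610% (0.0237% to 0.157%), against 0.117% (0.0953% to 0.144%) of the peaks of the other autosomes, and these intervals overlapped. A score of 300 or more was found in 1 of the 6561 peaks of chromosome 1, against 30 of the 83676 in the whole list. That peak scored 432.3 and was only 386 bp wide (122180047 to 122180432). It lay in the window with 8 peaks and had 2 other peaks within 100 kb, in the sparse stretch beside the second longest distance without a peak. The next 4 by score were wider, at 1617 bp (59819478 to 59821094, score 230.2), 2136 bp (154747776 to 154749911, score 219.6), 3385 bp (91826239 to 91829623, score 203.4) and 4242 bp (72300620 to 72304861, score 189.2). Of these, the region with a score of 203.4 lay in the block from 89 to 95 Mb. At a score of at least 100 the share on chromosome 1 was 1.83% (1.53% to 2.18%), against 1.66% in the whole list, so the shares did not differ beyond counting error.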

How the data were processed

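The labels gave 1 ChIP and 1 input library, and 1 list of peaks was used. Per the submitters' processing notes, the authors called peaks on mm9 with MACS, written as version 1.42. No aligner, read filter or tag number was given in the sources used here. The deposited score has no header and was read as -log10 of a p-value, multiplied by 10. That the list sets ChIP against input was inferred from the labels.

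Chromosome 1, its windows and the comparisons were chosen with earlier results of these data known. Windows of 1 Mb start at coordinate 1, count peaks by midpoint and lie wholly between a chromosome's first and last peak. Matching used the classes of 5 peaks per window that chromosome 1 fills, with equal weight for each window of the other autosomes. When another autosome was matched, chromosome 1 was among those it was compared with. Named were the 5 highest-scoring and 5 widest peaks, the 3 fullest, emptiest, widest and narrowest windows (for width, of at least 10 peaks), the 3 longest stretches without a peak and the run with most peaks. Intervals at 95% are Poisson for numbers, Wilson for shares and order-statistic for medians, and treat peaks or windows as independent. Nothing was tested between groups. The window, matching and joining steps were tested on simulated data. Alternatives were a minimum score of 50, scores from 30 to 40 alone, joining within 1 kb, other windows and classes, and leaving out chromosomes 4, 7 and 15. Gene names and sequences would need mm9 and were not analysed here. The software was matplotlib 3.10.9, scipy 1.17.1, pandas 2.3.3, numpy 2.4.6 and Python 3.11.15.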

Additional observations from a re-analysis of the deposited data

How the results depend on the processing

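The difference in width at matched peak number kept its direction and stayed within 1.5 times of 194 bp in all 8 alternatives, from 174 bp (only scores from 30 to 40, windows matched on these peaks) to 230 bp (scores of at least 50). It was the highest of the autosomes in each of the 6 settings of score, joining and windows in which the others were recomputed. The variance over mean of window counts stayed between 1.75 and 3.26 over 5 alternatives and was 1.503 for scores from 30 to 40 alone, a choice made after seeing the data. It was the lowest of the autosomes in each. Chromosome 1 was picked for its width and evenness in this same list, and all settings reuse that list. Its ranks under these settings are therefore no independent support. At a minimum score of 50 there were 1580 peaks, or 8.14 per Mb, with a median width of 927.5 bp, 9.18% of them at least 2 kb wide, and 9.88% and 1.65% followed within 10 kb and 1 kb. In that setting chromosome 11 had a median of 926.5 bp, so that the lead of chromosome 1 in unmatched median width was nearly gone. Joining peaks within 1 kb gave 32.2 regions per Mb, a median of 773 bp, 6.82% of at least 2 kb and 28.2% followed within 10 kb. Scores from 30 to 40 alone gave a median of 697 bp. Fewer or joined peaks change these values by construction. The share followed within 1 kb is 0 on joined peaks, and the share at a score of 50 is complete in peaks chosen by it, both by construction. No library could be left out, and no paired analysis was possible because each group has 1 library. Unknown tag numbers limit statements on weak peaks.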
